A study of Mus musculus with 6 samples.

Results

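The annexins are a family of proteins that bind negatively charged phospholipids when calcium rises. The genes described here are the 10 rows of the deposited table named Anxa1, Anxa2, Anxa3, Anxa4, Anxa5, Anxa6, Anxa7, Anxa8, Anxa9 and Anxa11, of 54532 genes in all. They were taken by name and chosen by their FPKM (fragments per kilobase per 1e6 fragments) in the aged and young libraries, whose differences were already known, so their levels and differences are given as a description and carry no test. RNA was sequenced from 3 libraries labelled aged (mice of 18 months) and 3 labelled young (mice of 3 months), all labelled lung, with no strain, sex, genotype or treatment given in the sources used here. No label ties a library to a mouse of its own, and p-values printed here therefore cover spread among libraries that may be technical.

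Each annexin carries a conserved core of repeats that holds calcium against the membrane, and an amino end that differs between members and sets their partners. Through these ends Anxa1 and Anxa2 bind S100 proteins. Annexins are known for patching torn membranes, organising endosomes and secretion, covering exposed phosphatidylserine and, in lung and elsewhere, for restraining inflammation (Anxa1) and for generating plasmin at the cell surface (Anxa2).

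Markers of lung cells were mostly close to 0 in these libraries. The alveolar type 2 marker Sftpc reached at most 0.112 FPKM in any library, and 4 of 5 markers of that cell type, 3 of 3 club cell markers and 4 of 4 endothelial markers were under 1 FPKM in every library. Of 5 alveolar type 1 markers only Pdpn reached 10 FPKM throughout, at 92.4 ± 4.88 FPKM in the libraries labelled aged and 38.4 ± 1.57 FPKM in those labelled young (SD, n = 3 each here and below), while Ager was under 1 FPKM. Hopx of the same list ran the other way, at 5.97 ± 0.443 FPKM (aged) and 10.2 ± 0.195 FPKM (young), and Rtkn2 did not pass, at 0.959 ± 0.237 FPKM (aged) and 1.35 ± 0.203 FPKM (young). The 6 fibroblast markers summed to 402 to 450.1 FPKM (aged) and 607 to 628 FPKM (young), with Dcn and Lum under 1 FPKM. Col1a1, Col1a2 and Pdgfra were lower under the aged label. Pdgfrb ran the other way, at 23.4 ± 1.08 FPKM (aged) and 21.4 ± 0.592 FPKM (young). The 4 mesothelial markers summed to 81.4 to 89.1 FPKM (aged) and 56.9 to 61.9 FPKM (young), with all but Msln under 1 FPKM. The 5 leukocyte markers summed to 18.8 to 19.8 FPKM (aged) and 4.12 to 4.97 FPKM (young), with all but Lyz2 under 1 FPKM. The 8 kidney tubule markers summed to 1.115 to 1.83 FPKM in the libraries labelled aged. Under the young label the sums were 132 FPKM in replicate 1, 0.816 FPKM in replicate 2 and 26.4 FPKM in replicate 3. Kap alone had 116 FPKM in young replicate 1 and 21.9 FPKM in young replicate 3. Slc34a1, Umod, Miox, Lrp2 and Slc12a3 were also highest in those replicates, while Aqp2 was not, nor was Slc12a1 in young replicate 3. The part of these cell types in the results was not tested. Without young replicates 1 and 3 the annexin calls that change are named, and changes in the list calls are described. Recovered depth was 16649061 to 17456715 reads per library.

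The annexin pool was led by 3 members in every library. Anxa5, Anxa2 and Anxa1 together made up 84.8 ± 0.588% of the summed annexin FPKM in the libraries labelled aged and 77.6 ± 0.355% in those labelled young. The 10 genes summed to 1222, 1237 and 1185 FPKM in the libraries labelled aged, against 1075, 1067 and 1066 FPKM in those labelled young. Without Anxa5 the order of the groups turned, at 632 ± 4.52 FPKM in the libraries labelled aged and 705 ± 6.68 FPKM in those labelled young. The higher total of the libraries labelled aged therefore rested on Anxa5, although the means of Anxa1 and Anxa8 were also higher there. In bulk RNA, fewer cells of a type and less RNA per cell cannot be told apart.

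**Figure D1:**
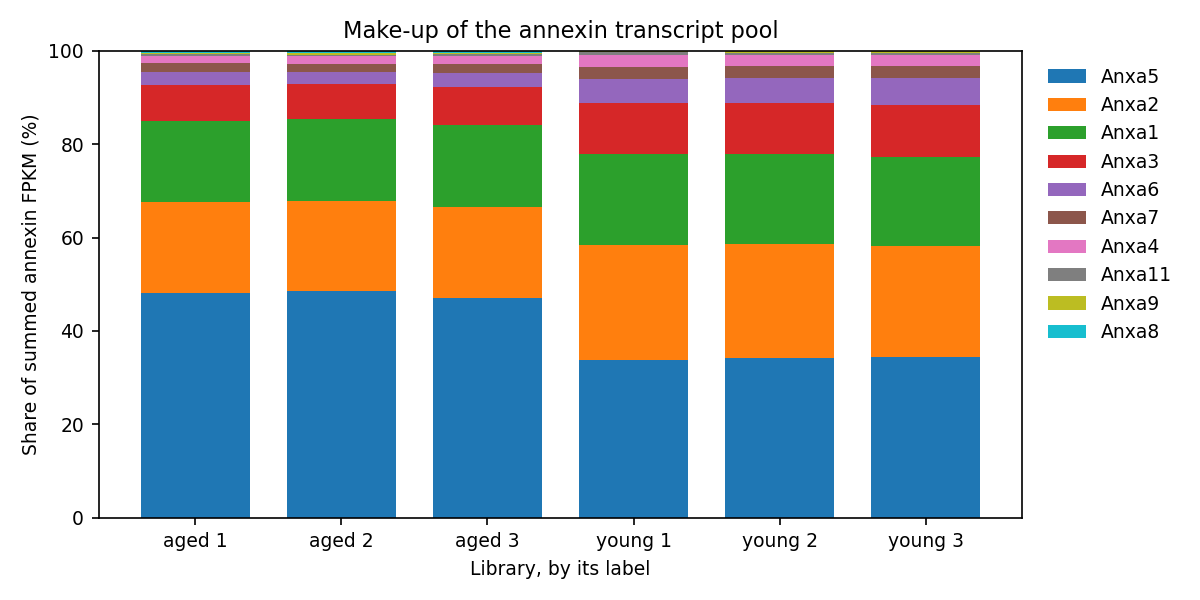
Share of each annexin in the summed FPKM of the 10 members (percent), one bar per library, those labelled aged to the left of those labelled young. Anxa5 fills 47.1% to 48.7% of the pool under the aged label and 33.7% to 34.3% under the young label, while Anxa6 fills 2.54% to 2.97% (aged) and 5.26% to 5.69% (young).

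In the fit of the whole table with limma, 9115 of 15197 tested genes passed an adjusted p of 0.05, or 60.0% of them, so a call was common in any set of genes. All 10 annexins passed the filter on low values (0.5 FPKM in at least 3 libraries), Anxa8 only through the libraries labelled aged. Of the 10, 8 passed the threshold, with 2 higher (27.7% of all tested genes were called higher) and 6 lower (32.3%), and Anxa1 and Anxa9 did not. With log values centred on the library median the split was 3 higher and 4 lower. That centring moved the whole table the same way, with more tested genes called higher and fewer called lower than without it. The median log2 fold change over all tested genes was then 0.04. Without centring, the median log2 fold change of the members was -0.21, beside -0.03 over all tested genes. The ranges of the groups did not overlap for 9 of the 10 members, a pattern seen in 66.9% of tested genes. For 3 members every library labelled aged was above every one labelled young (31.3% of tested genes), and for 6 it was below (35.6%). Since this contrast chose the members, nothing is read from these counts, nor from the calls of single members given below.

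**Figure D2:**
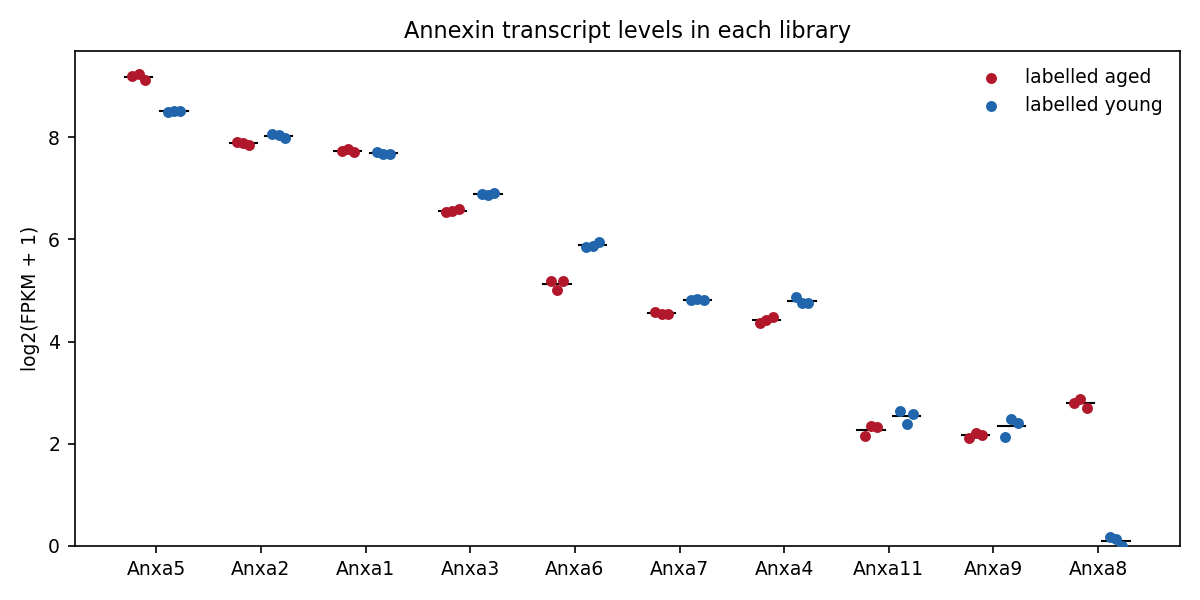
Transcript level of each annexin as log2(FPKM + 1), ordered by mean level, with 1 point per library (labelled aged left, labelled young right) and a line at the group mean. Anxa5 and Anxa8 sit higher in the libraries labelled aged, Anxa6, Anxa3, Anxa4 and Anxa7 sit lower, and the points of Anxa9 overlap.

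Among the annexins known as ligands of exposed phosphatidylserine, Anxa5 was the most abundant. It is the protein used to stain dying cells and was first known as an anticoagulant (chromosome 3, 36448923 to 36475894, minus strand, mm10). Its level was 588, 602 and 559 FPKM in the libraries labelled aged, against 363, 364 and 366 FPKM in those labelled young. Every library labelled aged lay above every library labelled young, by a ratio of group means of 1.6 (log2 fold change 0.68 ± 0.04 SE). By group mean Anxa5 ranked 29 of all genes in the libraries labelled aged and 88 in those labelled young.

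Anxa8, a low-abundance annexin related to Anxa5 and linked to late endosomes (chromosome 14, 34085981 to 34100571, plus strand), was close to absent under the young label. It had 5.94, 6.34 and 5.48 FPKM in the libraries labelled aged, against 0.124, 0.0919 and 0 FPKM in those labelled young, where 3 reads on this gene correspond to 0.0919 to 0.0927 FPKM. In reads this was 571 over the libraries labelled aged and 7 over those labelled young, a ratio per sequenced read of 84.3 with an exact 95% interval of 40.6 to 211 that covers counting error only. The log2 fold change of 2.69 ± 0.08 SE on the log2(FPKM + 1) scale understates so low a gene, and voom on recovered reads gave 6.63. Anxa8 was the lowest of the 10 under the young label and stood above Anxa11 and Anxa9 under the aged label.

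The windows from 250 bases before to 50 bases after the annotated start of these higher members are shown because they differ in CpG content (RefSeq, GRCm38.p6, the assembly of mm10), with CpG in capitals. That of Anxa8 is chr14:34085729-34086028 on the plus strand, and that of Anxa5 is chr3:36475838-36476137 on the minus strand.
Anxa8: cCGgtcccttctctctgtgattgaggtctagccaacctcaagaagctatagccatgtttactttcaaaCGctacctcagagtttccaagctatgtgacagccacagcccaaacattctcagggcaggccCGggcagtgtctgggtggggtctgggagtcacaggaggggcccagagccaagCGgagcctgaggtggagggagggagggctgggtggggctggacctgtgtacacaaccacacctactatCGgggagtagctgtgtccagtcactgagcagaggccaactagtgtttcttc
Anxa5: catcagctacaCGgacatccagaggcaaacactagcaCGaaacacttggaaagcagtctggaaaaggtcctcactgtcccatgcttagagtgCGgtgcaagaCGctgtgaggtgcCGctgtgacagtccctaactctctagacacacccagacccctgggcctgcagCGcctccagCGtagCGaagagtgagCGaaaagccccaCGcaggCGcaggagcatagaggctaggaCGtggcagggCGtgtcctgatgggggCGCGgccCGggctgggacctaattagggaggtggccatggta
The Anxa8 window holds 5 CpG and the Anxa5 window 16, where the median of 32851 promoters was 7. The table had windows for 8 of the 10 annexins, 11 in all. Searched on both strands, TATAAA stood in the windows of Anxa1 and Anxa2 (13.6% of all promoters held it) and TGANTCA in that of Anxa2 (7.81%). The GC box GGGCGG stood in windows of 4 annexins (Anxa2, Anxa4, Anxa7 and Anxa11; 35.7%), CACGTG in 1 window of Anxa7 (7.15%) and CCAAT in none (37.4%). None of these motifs contains another, and neither printed window holds any of them. A match is a description of letters only.

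Anxa1 and Anxa2, named above for binding S100 proteins, differed little. Anxa1, a glucocorticoid-induced protein that dampens leukocyte recruitment (chromosome 19, 20373428 to 20390944, minus strand), had 213, 217 and 210 FPKM in the libraries labelled aged, against 208, 205 and 204 FPKM in those labelled young. The ranges did not overlap, as for 66.9% of tested genes, and the difference did not pass the threshold (log2 fold change 0.05 ± 0.03 SE). It did pass after median centring (0.12) and with voom (0.09). Anxa2, which pairs with S100a10 and binds plasminogen and its activator (chromosome 9, 69453620 to 69491795, plus strand), had 239, 236 and 230 FPKM in the libraries labelled aged, against 266, 262 and 254 FPKM in those labelled young. It was lower in every library labelled aged, at 0.902 of the young mean (log2 fold change -0.15 ± 0.03 SE), and fell short of the threshold after median centring (-0.08) and without both young libraries that held kidney transcripts (-0.16).

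Anxa6, Anxa3 and Anxa4 were lower under the aged label. Anxa6, the member with a doubled core and a role in cholesterol and endosome traffic (chromosome 11, 54979108 to 55033445, minus strand), has a coding sequence of 2019 bases, where the other members run from 957 to 1509 bases. It had 35.5, 31.4 and 35.2 FPKM in the libraries labelled aged, against 56.6, 57.3 and 60.6 FPKM in those labelled young. This was the largest fall of the 10 genes, at 0.585 of the young mean (log2 fold change -0.76 ± 0.05 SE). Anxa3, known from granules of human neutrophils and also made by other cells (chromosome 5, 96793339 to 96845966, plus strand), had 91.9, 93.5 and 95.5 FPKM in the libraries labelled aged, against 118, 117 and 120 FPKM in those labelled young. Its ratio of means was 0.792 (log2 fold change -0.33 ± 0.03 SE), with no overlap between the groups. Anxa4, an annexin that assembles on epithelial membranes (chromosome 6, 86736840 to 86793584, minus strand), had 19.6, 20.5 and 21.4 FPKM in the libraries labelled aged, against 28.3, 25.9 and 25.9 FPKM in those labelled young. Its ratio of means was 0.769 (log2 fold change -0.36 ± 0.05 SE).

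Anxa7 and Anxa11 carry long amino ends, and their coding sequences run to 1455 and 1509 bases. Anxa7, or synexin, which aggregates secretory granules (chromosome 14, 20455260 to 20480133, minus strand), had 23.0, 22.4 and 22.3 FPKM in the libraries labelled aged, against 27.0, 27.3 and 27.1 FPKM in those labelled young. It was 0.831 of the young mean (log2 fold change -0.26 ± 0.03 SE) and varied least among the libraries labelled aged, with a coefficient of variation of 1.73%. Anxa11, which tethers RNA granules to lysosomes (chromosome 14, 25842156 to 25886804, plus strand), had 3.46, 4.05 and 4.0 FPKM in the libraries labelled aged, against 5.20, 4.25 and 4.97 FPKM in those labelled young. The nearest libraries of the groups were close, at 4.05 and 4.25 FPKM, and its log2 fold change of -0.26 ± 0.08 SE missed the threshold without aged replicate 1 (-0.21), young replicate 1 (-0.21) or young replicate 3 (-0.24), and after median centring (-0.20). It also missed it with the replicate number as a block and with no filter on low values, both at -0.26, and without both young libraries that held kidney transcripts (-0.12).

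Anxa9, an atypical member whose calcium-binding residues are poorly conserved (chromosome 3, 95296096 to 95307176, minus strand), had 3.31, 3.64 and 3.51 FPKM in the libraries labelled aged, against 3.39, 4.56 and 4.28 FPKM in those labelled young. The groups overlapped, and the log2 fold change was -0.17 ± 0.09 SE. It passed the threshold without young replicate 1 (-0.27), the young library with the lowest value, and without both young libraries that held kidney transcripts (-0.31). Of its 2073 exonic bases, 71 are shared with exons of Mindy1 on the opposite strand and 94 with exons of 6330562C20Rik on the same strand. Of 4135 exonic bases of Anxa11, 113 are shared with its antisense gene Anxa11os. Anxa2 shares 98 of 3731 exonic bases with Gm16144 and Anxa4 75 of 4645 with Gm44036, both on the opposite strand. Anxa3 shares 112 of 3643 with Gm42603 on the same strand. The sources used here do not give the use of strand in counting, which would not separate genes on the same strand. The values of these 5 annexins may therefore hold reads of a partner.

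**Figure D3:**
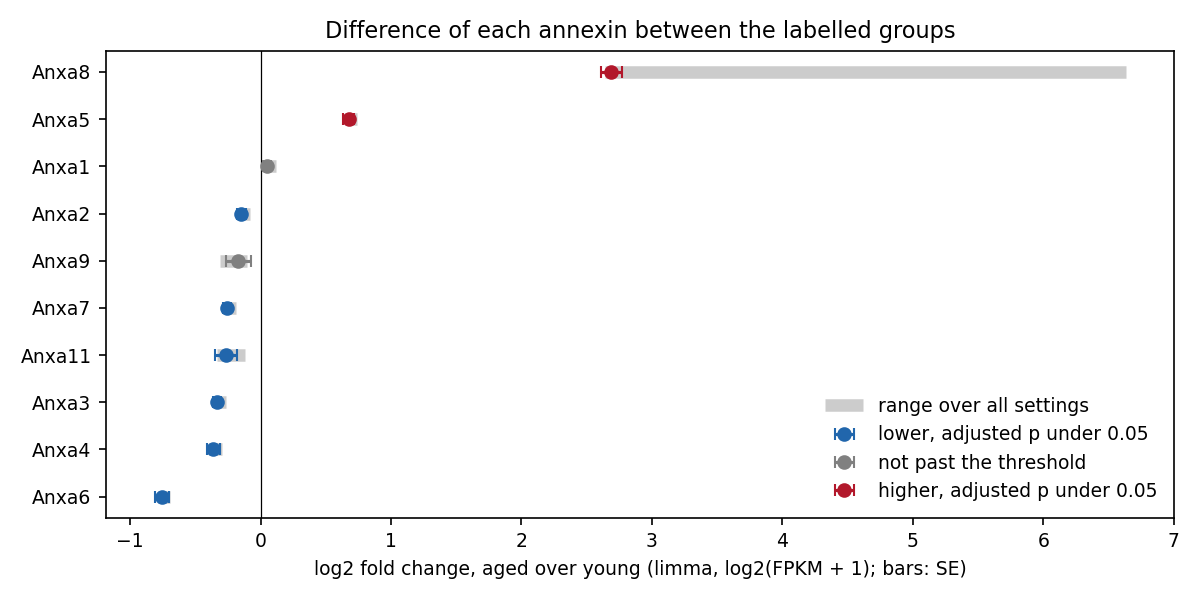
Log2 fold change of each annexin, aged over young, from limma on log2(FPKM + 1), with SE bars and colours for calls over all genes tested. Grey bands span the values over 15 alternative settings, which include other scales, and for Anxa8 reach from 2.64 to 6.63.

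Reads behind the members set how firmly each can be read. Anxa5 had 17061 to 18143 reads per library under the aged label and 11099 to 11243 under the young label, and Anxa6 had 1562 to 1789 (aged) and 2854 to 3066 (young). Anxa11 had 246 to 284 reads (aged) and 305 to 370 reads (young), and Anxa9 had 118 to 128 reads (aged) and 121 to 164 reads (young). Spread followed abundance only in part. The coefficient of variation of Anxa9 was 4.77% among the libraries labelled aged and 14.9% among those labelled young, and that of Anxa5 was 3.80% (aged) and 0.435% (young).

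The shares restated these levels within each library. Anxa2 made up 19.3 ± 0.217% of the pool in the libraries labelled aged and 24.3 ± 0.491% in those labelled young. Anxa1 made up 17.5 ± 0.137% (aged) and 19.2 ± 0.135% (young), although its own level was slightly higher under the aged label. Anxa3 made up 7.71 ± 0.301% (aged) and 11.1 ± 0.169% (young), and Anxa8 0.487 ± 0.0250% (aged) and 0.00670 ± 0.00598% (young). The whole family was 0.405 ± 0.00493% of all FPKM in the libraries labelled aged and 0.350 ± 0.00637% in those labelled young.

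In order of level, neighbouring members were mostly apart. In the libraries labelled aged the order was Anxa5, Anxa2, Anxa1, Anxa3, Anxa6, Anxa7, Anxa4, Anxa8, Anxa11 and Anxa9, and only Anxa11 and Anxa9 had overlapping ranges. In those labelled young the first 7 stood in the same order, followed by Anxa11, Anxa9 and Anxa8, and the ranges of Anxa7 and Anxa4 and of Anxa11 and Anxa9 overlapped. The coding sequences of the 45 pairs were 55.7% to 63.5% identical over aligned bases, highest for Anxa4 with Anxa5. No pair of members shared a run of 50 bases in any GENCODE M21 transcript.

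By Euclidean distance of log2(FPKM + 1) over the 6 libraries, among 11693 protein-coding genes tested, Anxa5 was most like Csf1 (0.119), Ybx1 (0.127) and S100a6 (0.427). Anxa8 was most like S100a7a (0.838), Scg5 (0.936) and Bglap2 (0.944), and Anxa6 most like Prdx3 (0.148), Matn2 (0.233) and Syngr2 (0.243). Such likeness includes the level, and says nothing of shared control.

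Anxa13, one of the remaining annexins and known from gut and kidney epithelium, had 2.37, 2.01 and 1.94 FPKM in the libraries labelled aged, against 0.775, 0.470 and 0.988 FPKM in those labelled young. Every library labelled aged was higher, with a log2 fold change of 0.84 ± 0.13 SE (limma adjusted p = 0.00124). Anxa10 had 28 reads over the libraries labelled aged and 7 over those labelled young, at most 0.381 FPKM, and was not tested.

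Genes that act with annexins were described in 6 lists of 88 genes, of which 61 were tested. Of these, 30 were higher and 21 lower, so 83.6% were called, where 60.0% of all tested genes were. Over all tested genes 27.7% were called higher and 32.3% lower. The lists were chosen with earlier results of these data known, so nothing is read from these counts. The 30 include Xkr9, which passed the filter on low values only through the libraries labelled aged. Without both young libraries that held kidney transcripts, fewer were called in each direction, here as over all tested genes, with a lone young library left. The median log2 fold change of the tested genes was 0.12, beside -0.03 over all tested genes.

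All 4 S100 partners in the list were called higher under the aged label, where 27.7% of all tested genes were. S100a10, the light chain partner of Anxa2, had 744, 734 and 645 FPKM in the libraries labelled aged, against 513, 538 and 544 FPKM in those labelled young (log2 fold change 0.41 ± 0.06 SE, limma adjusted p = 0.00153). Anxa2 itself was lower in the same libraries. S100a6 rose 1.46-fold, with 504 ± 38.6 FPKM in the libraries labelled aged and 345 ± 23.2 FPKM in those labelled young. S100a11, a partner of Anxa1, was 1.12-fold higher at 1797 ± 40.3 FPKM in the libraries labelled aged and 1611 ± 25.7 FPKM in those labelled young, and S100a4 was 1.45-fold higher, at 35.8 ± 8.19 FPKM (aged) and 24.7 ± 1.37 FPKM (young). S100a4 and S100a11 both lost their calls, leaving 2 of 4, without aged replicate 1 or 2, young replicate 1 or 2, both young libraries with kidney transcripts, or the filter on low values. S100a4 also lost its call without young replicate 3, and S100a11 with the replicate number as a block (limma adjusted p = 0.0892).

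The receptors of Anxa1 were near absent. Fpr2 and Fpr3, formyl peptide receptors of leukocytes, were at 0 in every library, and Fpr1 reached 0.131 FPKM in 1 library labelled young. Of 5 tested genes in this list, 0 were higher and 2 lower (27.7% and 32.3% of all tested genes). Per1, a clock gene that glucocorticoids induce, had 6.62, 6.40 and 8.21 FPKM in the libraries labelled aged, against 12.4, 12.4 and 13.4 FPKM in those labelled young (log2 fold change -0.77 ± 0.09 SE, limma adjusted p = 0.000349). Nr3c1, the glucocorticoid receptor, fell to 23.8 ± 0.898 FPKM in the libraries labelled aged, against 27.2 ± 0.481 FPKM in those labelled young, a call that was lost without both young libraries with kidney transcripts (-0.18, limma adjusted p = 0.0754). The glucocorticoid targets Dusp1 and Fkbp5 did not pass, at 18.7 ± 0.159 and 14.5 ± 0.0695 FPKM in the libraries labelled aged and 19.4 ± 0.312 and 14.2 ± 0.559 FPKM in those labelled young. Tsc22d3, another such target, narrowly missed the threshold (limma adjusted p = 0.0527), with no overlap between the groups. It had 2.53 ± 0.106 FPKM (aged) and 3.04 ± 0.297 FPKM (young), and passed without young replicate 2 (-0.24).

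Within the plasminogen system that Anxa2 anchors, 2 of 5 tested genes were higher and 1 lower (27.7% and 32.3% of all tested genes). Plau, the urokinase activator, had 26.7, 25.8 and 24.0 FPKM in the libraries labelled aged, against 12.5, 10.4 and 12.4 FPKM in those labelled young. This was a 2.17-fold difference with no overlap (log2 fold change 1.06 ± 0.08 SE, limma adjusted p = 4.92e-05). Its receptor Plaur rose 1.70-fold. Plat, the tissue activator that binds Anxa2, was lower at 7.39 ± 0.173 FPKM in the libraries labelled aged and 10.5 ± 0.580 FPKM in those labelled young. Ahnak, a large scaffold that binds Anxa2 with S100a10, stood at 112 ± 5.02 FPKM (aged) and 111 ± 4.46 FPKM (young) and did not pass.

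Membrane repair genes were mixed, with 8 of 14 tested members higher and 5 lower (27.7% and 32.3% of all tested genes). Cav1, the coat protein of caveolae, rose 1.47-fold to 226 ± 2.71 FPKM in the libraries labelled aged, against 154 ± 5.73 FPKM in those labelled young. Pdcd6ip (ALIX), which recruits the membrane-cutting machinery, rose 1.27-fold, and the calpain Capn2 1.26-fold, while Capn1, another calpain, was lower, at 0.821 of the young mean. Without both young libraries with kidney transcripts, fewer were called in each direction, here as over all tested genes, with a lone young library left. Dysf, dysferlin, did not pass at 2.74 ± 0.301 FPKM (aged) and 3.27 ± 0.208 FPKM (young).

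Genes of phosphatidylserine exposure and uptake were likewise mixed, with 8 of 19 tested members higher and 9 lower (27.7% and 32.3% of all tested genes). Xkr9, among the 8 higher, passed the filter on low values only through the libraries labelled aged. It had 0.688 ± 0.0206 FPKM there, against 0.110 ± 0.0456 FPKM in those labelled young, and its call is counted but not read. Mertk, a receptor that engulfs dying cells, had 8.57, 9.10 and 9.42 FPKM in the libraries labelled aged, against 3.03, 2.59 and 2.61 FPKM in those labelled young (log2 fold change 1.42 ± 0.06 SE, limma adjusted p = 8.98e-06). Its bridging ligand Pros1, protein S, rose 4.36-fold and the integrin chain Itgb5 1.58-fold. Axl, a receptor of the same family as Mertk, went the other way, at 18.8 ± 0.462 FPKM in the libraries labelled aged and 29.9 ± 0.921 FPKM in those labelled young. Without both young libraries with kidney transcripts, fewer were called in each direction, here as over all tested genes, with a lone young library left.

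The list of other genes linked to calcium or phospholipid binding had 8 of 14 tested members higher and 4 lower (27.7% and 32.3% of all tested genes). The copine Cpne2 rose 2.15-fold to 31.1 ± 2.01 FPKM in the libraries labelled aged, against 14.5 ± 0.352 FPKM in those labelled young. The protein kinase C genes Prkca and Prkcb rose 1.98-fold and 3.45-fold. Esyt1, which tethers the endoplasmic reticulum to the plasma membrane, was lower, at 0.628 of the young mean.

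**Figure D4:**
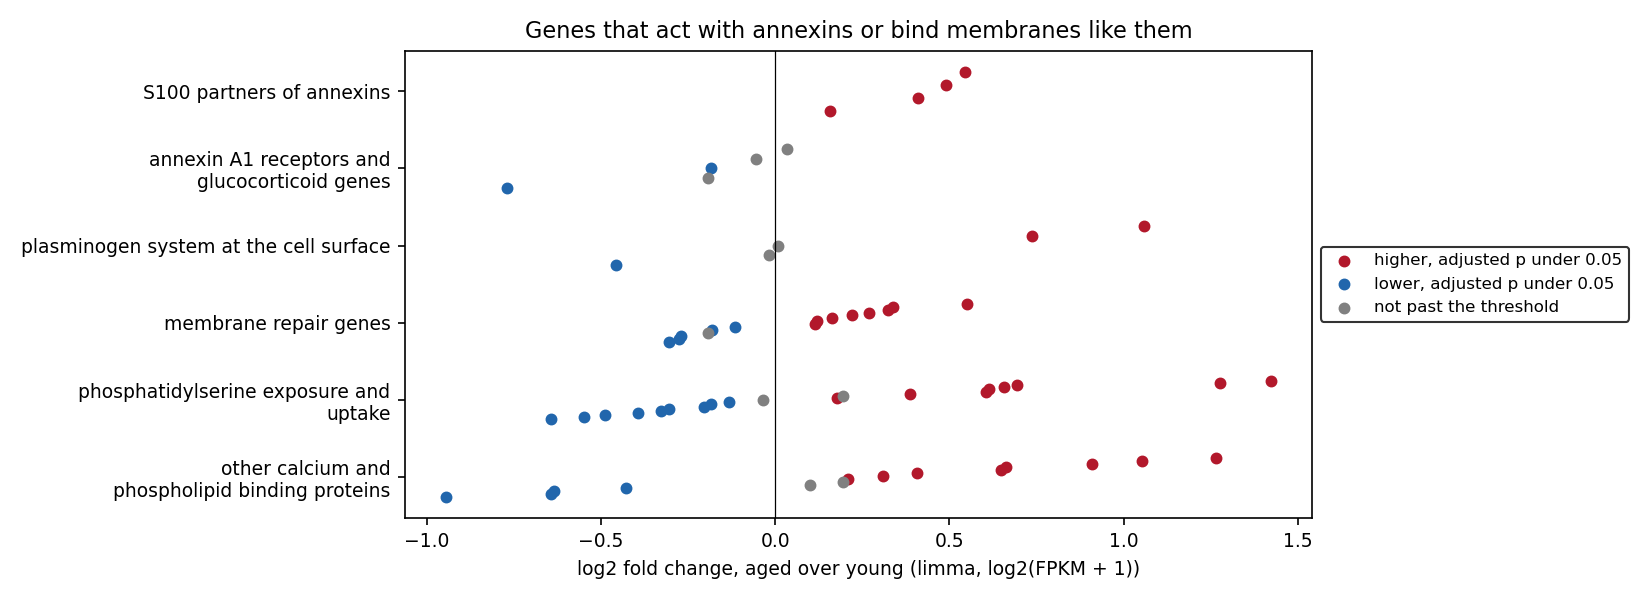
Log2 fold change (aged over young, limma on log2(FPKM + 1)) of the tested genes in the 6 lists, with 1 point per gene coloured by its call over all genes. The S100 points lie right of 0, and the other lists spread to both sides.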

How the data were processed

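The authors deposited 1 table of FPKM values, with gene lengths. Per the labels' protocols, the genome index was built with HISAT2 2.0.5 and read pairs were aligned to it, and per the submitters' processing notes the build was mm10. The counting program, its annotation and its strand setting were not given in the sources used here. Every value times gene length was a whole multiple of 1 step per library (tolerance 0.01), so 100% of values gave whole reads, used for voom (9512 genes called) and for reads per gene. Member positions matched GENCODE M21.

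Values were compared as log2(FPKM + 1) with limma 3.58.1 in R 4.3.3 (linear model on group, mean-variance trend, 2-sided, Benjamini-Hochberg over 15197 genes at 0.05). Genes had at least 0.5 FPKM in 3 of 6 libraries. Folds are ratios of mean FPKM. The fit was tested on simulated reads, where it missed a larger part of the changed genes of low level. A first criterion over all levels was not met, and was then replaced by one by level with the fit unchanged. The added 1 shrinks folds of low genes, here Anxa8, Anxa9 and Anxa11. Python 3.11.15 and Biopython 1.88 did the rest. A planned protein comparison was replaced by coding sequences.

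The members and lists were chosen with earlier results of these data known. Named genes were the annexins, the S100 partners, up to 4 genes of smallest p per list, some that did not pass, and the nearest 3 genes to 3 annexins. Alternatives were other pseudocounts, filters, scalings, voom, a replicate block and left-out libraries. Leaving out both young libraries with kidney transcripts was added after the data were seen. A gene of the lists is not reported here and is left out of their counts.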

Additional observations from a re-analysis of the deposited data

How the results depend on the processing

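The 10 annexins kept their direction under all 15 alternatives, with 137 of 150 comparisons on the same side of the threshold, 9 losing a call (Anxa2 and Anxa11) and 4 gaining one (Anxa1 and Anxa9). The number called ranged from 7 to 8 when 1 library was left out, and was 9 with voom. The alternatives refit the same libraries by which the members were chosen, so nothing is read from these counts. Anxa8 is among them, and passed the filter on low values only through the libraries labelled aged. Genes called over the table ranged from 8155 to 8708 when 1 library was left out, and were 6234 without both young libraries that held kidney transcripts. There, the lists held 13 lower calls, and the lone young library was assumed to vary like the others. No pairing of the libraries by replicate number was seen. Deviations of same-numbered libraries correlated at -0.0079 to 0.019, and not every library correlated best with its own number. Such values cannot show that same-numbered libraries were handled apart. With the replicate block, 8441 genes and 7 annexins were called, and 45 list genes. Over the 62 other genes, reversals were limited to genes that did not pass the threshold. Plgrkt gave 0.049 with median centring, 0.0074 rescaled to TPM, 0.017 with voom, 0.14 without both young libraries with kidney transcripts and -0.094 to 0.035 without single libraries. Ahnak gave -0.024 to 0.040 without single libraries, and with median centring Dusp1 gave 0.011 and Stab2 0.031. The cause of these changes was not tested. With 7 reads under the young label, depth limits the size of the Anxa8 difference.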

Other observations

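The genes around the annexins were looked at after their values were seen. Of 40 protein-coding genes that flank the members without overlapping them, 28 were tested, with 9 higher and 9 lower, where 27.7% of all tested genes were called higher and 32.3% lower. A630023A22Rik spans Anxa8 on the opposite strand and shares 0 exonic bases with it. It had 1.22, 1.63 and 1.17 FPKM in the libraries labelled aged, against 0.130, 0.0861 and 0.130 FPKM in those labelled young. Antxrl, 9576 bases before Anxa8, had 0.722, 0.752 and 0.722 FPKM in the libraries labelled aged, against 0.0823, 0.102 and 0.123 FPKM in those labelled young. Both passed the filter on low values only through the libraries labelled aged, so their values are given with no test. Antxrl is among the 9 flanking genes counted as higher, and its call is not read. Unspliced reads of one gene counted to another were not tested. 1810062G17Rik, which starts 43 bases from Anxa5 on the opposite strand, had 13.1 ± 0.674 FPKM in the libraries labelled aged and 8.76 ± 0.469 FPKM in those labelled young (limma adjusted p = 0.000214).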
